A study of Rattus norvegicus with 9 samples.

Results

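The solute carriers of the meningeal barrier examined here are 7 genes, Slc22a6, Slc22a8, Slc13a3, Slc13a4, Slc6a13, Slc6a20a and Slc47a1, read in hypothalamus by 9 of 31042 probe sets, the probe groups that measure 1 transcript each on the array. A probe set was taken as a member where the platform's annotation names it by one of these symbols alone. The genes were chosen by their role and with the values of these same arrays known, by the spread of their log2 values between rats, so that spread and the likeness of their profiles are given as a description, without a test.

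Hypothalamus was taken from male rats aged 13 weeks. In the noodle group 4 rats ate a medium-fat diet holding 30% instant noodles by weight, with their seasonings, and in the control group 5 rats ate that diet without the seasonings. The diets were fed for 30 days in one label and 4 weeks in another. Fat gave 26% of dietary energy in both groups, and intake was matched at about 60 g per kg of body weight per day. Each array holds 1 rat, and rats are called by their diet and the number in the labels. The labels name neither the strain nor the borders of the dissection, and p-values cover the spread between these 9 rats only.

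The arachnoid and the pia are the inner coverings of the brain, and their cells, with those of the choroid plexus, control which solutes pass between blood, cerebrospinal fluid and brain. Organic anion carriers exchange drugs, toxins and metabolites for dicarboxylates, sodium-coupled carriers bring in the dicarboxylates, sulfate, amino acids and GABA, and a proton-coupled exporter releases organic cations. In a bulk sample of hypothalamus, fewer cells of a type and less RNA per cell cannot be told apart.

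In these rats the carriers stood high or low together, and each diet held high and low rats. Of the 9 probe sets 8 varied between rats, and in 8 of these 8 the same 5 rats, noodle rats 1 and 13 and control rats 2, 5 and 8, lay above noodle rats 4 and 7 and control rats 11 and 14. The span from the lowest to the highest rat ran from 0.58 log2 units for Slc22a8 to 2.16 for Slc13a4, which is 1.50-fold to 4.47-fold. None of the 9 probe sets differed between the diets by limma, and in each of them the values of the diets overlapped.

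Spread has to be read against the nature of the deposited values. Of all probe sets 29759 (95.9%) spanned under 0.01 log2 units from the lowest rat to the highest and are called compressed, while 1223 (3.94%) spanned more than 0.05 and are called variable. The limit of 0.05 was set after the values had been seen. A compressed probe set gives no usable fold change. Among members, 1 of the 2 Slc22a8 probe sets was compressed, between 6.2271 and 6.2278 in all 9 rats. Ordered by range over all probe sets, and with each gene given by its probe set of widest range, Slc13a4 stood at rank 6, Slc6a20a at 15, Slc47a1 at 16, Slc22a6 at 27, Slc13a3 at 72, Slc6a13 at 78 and Slc22a8 at 442. The second probe set of Slc6a20a stood at rank 134 and that of Slc22a8 at rank 10218.

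**Figure D1:**
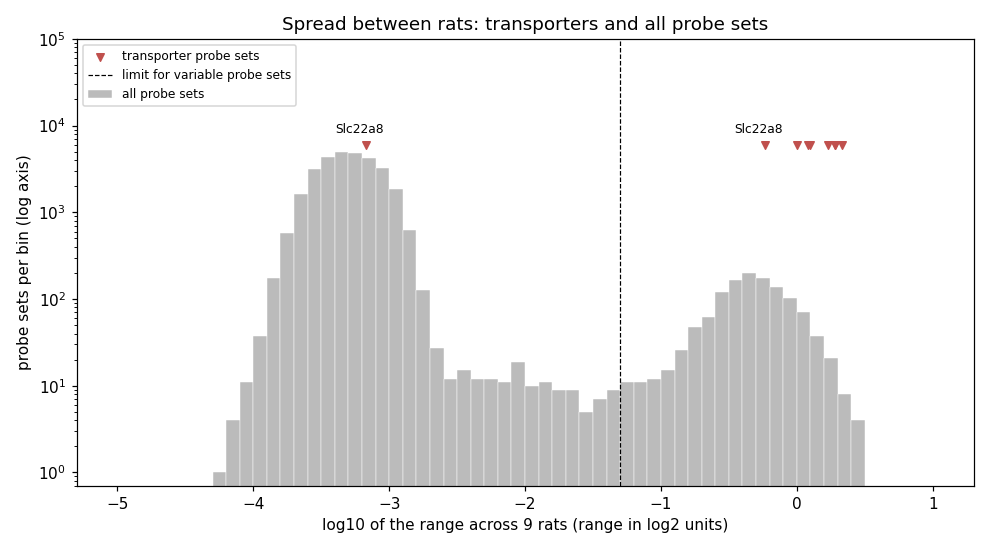
Histogram of the range across 9 rats for all 31042 probe sets, with the log10 of the range (log2 units) on the x axis and probe sets per bin on a log y axis; triangles mark the 9 transporter probe sets. The probe sets form a compressed and a variable set, and 8 transporter probe sets lie in the variable one, with the second Slc22a8 probe set among the compressed.

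Slc22a6 and Slc22a8 encode the organic anion exchangers that clear drugs and metabolites from cerebrospinal fluid and, in kidney, from blood. Slc22a6 measured 7.44, 5.85, 5.75 and 6.86 in noodle rats 1, 4, 7 and 13, against 7.32, 7.13, 7.41, 6.03 and 5.89 in control rats 2, 5, 8, 11 and 14. Noodle rat 1 and control rat 8 were highest, noodle rats 4 and 7 lowest, and the step between the 5th and the 6th rat was 0.83. Slc22a8 moved less, with 7.27, 6.94, 7.03 and 7.17 in noodle rats 1, 4, 7 and 13, against 7.41, 7.25, 7.42, 6.93 and 6.84 in control rats 2, 5, 8, 11 and 14. Here control rats 8 and 2 were above noodle rat 1, and the step between the 5th and the 6th rat was 0.14. The genes lie next to each other on chromosome 1 in the assembly GRCr8.

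Slc13a3 and Slc13a4 are sodium-coupled carriers of one family. Slc13a3 takes up dicarboxylates such as succinate and alpha-ketoglutarate, the counter-ions of organic anion exchange, and Slc13a4 takes up sulfate. Slc13a4 had the widest range of the members, with 8.40, 6.38, 6.24 and 7.59 in noodle rats 1, 4, 7 and 13, against 8.16, 7.95, 8.17, 6.25 and 6.29 in control rats 2, 5, 8, 11 and 14. Its lower 4 rats lay within 6.24 to 6.38, and a step of 1.21 separated them from noodle rat 13. Slc13a3 measured 7.68, 6.71, 6.60 and 7.11 in noodle rats 1, 4, 7 and 13, against 7.86, 7.37, 7.72, 6.63 and 6.62 in control rats 2, 5, 8, 11 and 14. Control rat 2 was the highest for Slc13a3, and the lower 4 rats again lay close together.

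Slc6a13 encodes a GABA carrier that also takes taurine, and Slc6a20a a carrier of proline and other imino acids. Slc6a13 measured 7.46, 6.44, 6.33 and 6.97 in noodle rats 1, 4, 7 and 13, against 7.31, 7.22, 7.37, 6.25 and 6.32 in control rats 2, 5, 8, 11 and 14. Noodle rat 1 was highest and control rat 11 lowest, with a step of 0.53 between the 5th and the 6th rat. The wider of the 2 Slc6a20a probe sets gave 8.49, 6.81, 6.77 and 7.68 in noodle rats 1, 4, 7 and 13, against 8.10, 7.97, 8.21, 6.57 and 6.72 in control rats 2, 5, 8, 11 and 14. This is the order of rats that Slc6a13 showed. The other Slc6a20a probe set ran from 6.58 to 7.58 and placed noodle rat 13 above control rat 2.

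Slc47a1, the proton-coupled exporter of organic cations, was the least stepped of the members. It measured 7.64, 6.34, 6.03 and 6.48 in noodle rats 1, 4, 7 and 13, against 7.51, 6.82, 7.35, 5.73 and 6.12 in control rats 2, 5, 8, 11 and 14. Noodle rat 13 was only 0.14 above noodle rat 4, and the widest step lay between the 3 highest rats and control rat 5. In 7 of the 8 variable probe sets the widest step lay instead between the 5th and the 6th rat. Noodle rat 1 was highest in 6 of 8 probe sets, and noodle rat 13 held the 5th place in 7 of 8.

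**Figure D2:**
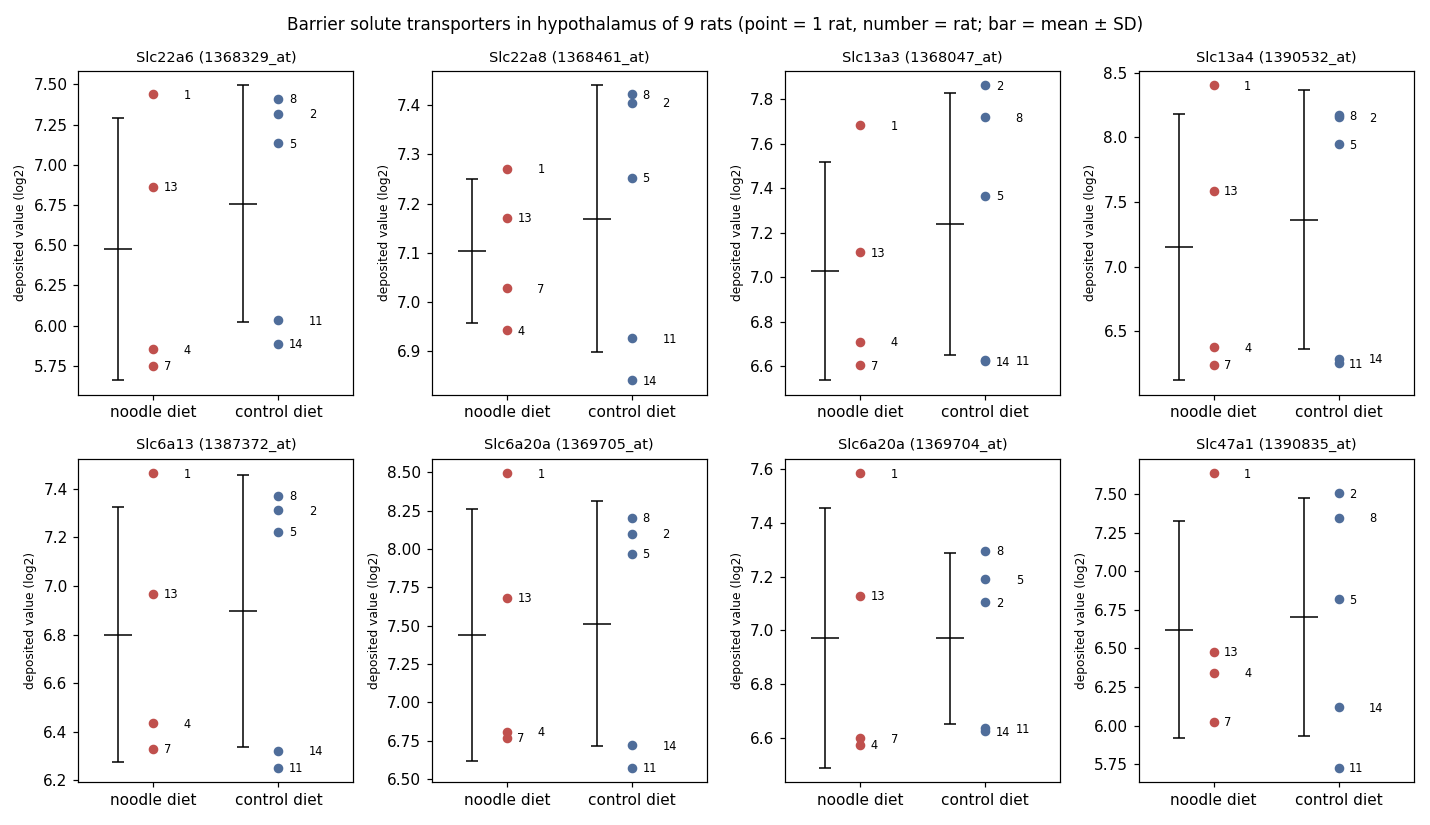
Deposited log2 value (y axis) of the 8 variable transporter probe sets in each rat, by diet (x axis), with points for single rats marked by rat number and bars for the mean ± SD of 4 noodle-diet and 5 control rats. In each panel noodle rats 1 and 13 and control rats 2, 5 and 8 stand above the other 4 rats, and the diets overlap.

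Because the rats fell into sets of 5 and 4, a correlation between members over all 9 rats would mostly restate that step, and neither set is large enough for one of its own. The order of the rats was therefore compared instead. Within the upper 5 rats, control rat 5 held the 4th place in Slc22a6, Slc22a8, Slc13a3, Slc13a4, Slc6a13, Slc47a1 and the wider Slc6a20a probe set. Within the lower 4 rats the order was less regular. Noodle rat 4 was the highest of them in 5 of 8 probe sets, while the lowest rat was noodle rat 7 in 3 probe sets, control rat 11 in 3, noodle rat 4 in 1 and control rat 14 in 1. The array medians followed the same step, from 6.7809 to 6.7850 in the upper 5 rats and from 6.7771 to 6.7782 in the other 4. With all arrays shifted to a common median the 5 rats stayed on top in 8 of 8 probe sets and the step of Slc13a4 was 1.21. Medians differed by under 0.01 and the smallest step between the 5th and the 6th rat was 0.14, so that shift could not have changed the order. The manufacturer's probe set for the 5-prime end of Gapdh, which falls when RNA is degraded, ran from 11.31 to 11.49 in the 5 rats and from 11.36 to 11.51 in the 4.

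The promoter sequences of members that moved together are shown so that their starts can be compared. RefSeq windows from 250 bases before to 50 after the gene start were held for 4 of the 7 members in the GRCr8 table, which also names the strand. Capitals mark matches on either strand to the TATA box (TATAAA), the CCAAT box (the letters of its name), the GC box (GGGCGG), the core of sites for HNF1 factors (GTTAAT), the forkhead core (TAAACA) or the core of nuclear receptor sites (AGGTCA), and in these windows no matches overlapped.
Slc22a8 chr1:214927034-214927333, plus strand: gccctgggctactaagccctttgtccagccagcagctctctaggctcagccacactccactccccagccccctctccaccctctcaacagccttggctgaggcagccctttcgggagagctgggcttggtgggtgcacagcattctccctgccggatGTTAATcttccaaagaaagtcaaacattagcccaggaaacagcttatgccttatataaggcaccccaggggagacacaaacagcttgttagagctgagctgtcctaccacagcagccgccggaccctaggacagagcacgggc
Slc13a3 chr3:174623844-174624143, minus strand: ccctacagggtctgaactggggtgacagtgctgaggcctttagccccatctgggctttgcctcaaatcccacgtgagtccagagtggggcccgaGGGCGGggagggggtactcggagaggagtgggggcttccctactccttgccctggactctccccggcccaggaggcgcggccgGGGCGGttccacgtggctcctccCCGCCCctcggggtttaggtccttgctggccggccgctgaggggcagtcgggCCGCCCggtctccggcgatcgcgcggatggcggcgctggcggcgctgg
Slc13a4 chr4:64955937-64956236, minus strand: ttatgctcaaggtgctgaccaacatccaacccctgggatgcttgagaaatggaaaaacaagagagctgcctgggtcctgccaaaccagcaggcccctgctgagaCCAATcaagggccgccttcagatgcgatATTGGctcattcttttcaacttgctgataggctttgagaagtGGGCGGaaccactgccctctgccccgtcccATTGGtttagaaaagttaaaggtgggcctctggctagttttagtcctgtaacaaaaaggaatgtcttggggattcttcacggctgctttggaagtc
Slc6a20a chr8:132199851-132200150, minus strand: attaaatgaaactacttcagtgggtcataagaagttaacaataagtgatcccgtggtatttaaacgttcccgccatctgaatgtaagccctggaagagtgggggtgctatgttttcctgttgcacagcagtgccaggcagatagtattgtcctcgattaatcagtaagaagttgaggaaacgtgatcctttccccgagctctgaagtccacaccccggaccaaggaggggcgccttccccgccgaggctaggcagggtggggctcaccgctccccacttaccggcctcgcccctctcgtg
The window of Slc22a8 held 1 GTTAAT, at -93 from the start, a motif found in 7.45% of 33469 windows of that length. Slc13a4 held CCAAT at -146 and, on the opposite strand, at -118 and -46, and GGGCGG at -76, while Slc13a3 held GGGCGG at -156 and -73 and, on the opposite strand, at -50 and 3. CCAAT occurred in 37.5% and GGGCGG in 33.1% of windows. Slc6a20a matched none of the 6 motifs. The letters TATAAA, the forkhead core and the nuclear receptor core, present in 14.2%, 13.7% and 16.2% of windows, were in none of the 4. Only exact letters were searched, so the stretch tatataag in the Slc22a8 window was not counted, and other forms of a TATA box were not looked for. No motif was shared by more than 2 of the members, and GC content ran from 50.7% for Slc13a4 to 71.7% for Slc13a3, with a median of 51.7% over all windows.

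No carrier differed detectably between the diets. Of the 9 transporter probe sets 0 passed limma's test at an adjusted p under 0.05, as did 0 of all 31042 (0%), and each member had an adjusted p that rounded to 1. Without adjustment 712 probe sets were under 0.05 (2.29%), and 0 members. The values of the diets did not overlap in 0 of the 9 members, against 176 of all probe sets (0.567%) and 1 of the 1223 variable ones (0.0818%). The table gave limma no call for any gene, so these values show only that no diet difference of the members could be resolved.

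Slc22a6 averaged 6.48 ± 0.81 in noodle rats and 6.76 ± 0.74 in control rats (SD, 4 and 5 rats, as for all means here). The difference was -0.28 log2 units (SE 0.49), with a 95% interval from -1.42 to 0.86. Slc22a8 averaged 7.10 ± 0.15 against 7.17 ± 0.27, a difference of -0.07 whose interval, -0.40 to 0.27, was the narrowest of the 8 variable probe sets. Either is smaller than the SD within a diet. Slc13a4 averaged 7.15 ± 1.03 in noodle rats and 7.36 ± 1.002 in control rats. Its interval, from -1.71 to 1.28, was the widest of the 8. In each of the 8 variable probe sets 2 of 4 noodle rats and 3 of 5 control rats were on the high side of the step.

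Slc13a3 averaged 7.03 ± 0.49 in noodle rats and 7.24 ± 0.59 in control rats, with an interval from -1.02 to 0.60. Slc6a13 averaged 6.80 ± 0.52 and 6.90 ± 0.56, with an interval from -0.90 to 0.71. Slc47a1 averaged 6.62 ± 0.70 and 6.70 ± 0.77, with an interval from -1.18 to 1.01. For each of these carriers of dicarboxylates, GABA and organic cations the difference was below the SD of either diet. The wider Slc6a20a probe set averaged 7.44 ± 0.82 in noodle rats and 7.51 ± 0.80 in control rats, and the other 6.97 ± 0.48 and 6.97 ± 0.32. Of the 9 member probe sets 8 lay lower on the noodle diet and 1 higher, against 16129 lower of all 31042 and 588 lower of the 1223 variable ones. Among those 8 is the compressed Slc22a8 probe set, whose difference is not a usable fold change. The members share the same high and low rats, so their signs are not separate pieces of evidence. Leaving out noodle rat 7 turned the difference of Slc13a4 to 0.09, of Slc6a13 to 0.06, of Slc47a1 to 0.11 and of the wider Slc6a20a probe set to 0.15.

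**Figure D3:**
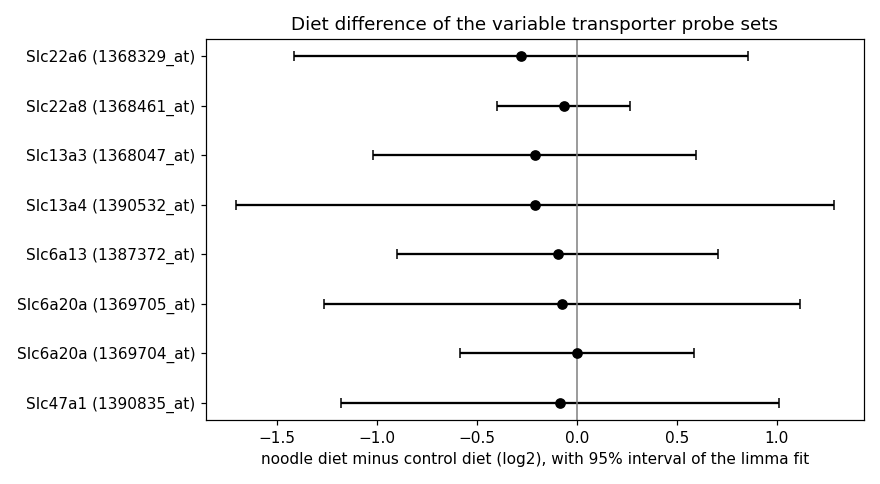
Noodle diet minus control diet in log2 units (x axis) for the 8 variable transporter probe sets (y axis), as the limma estimate with its 95% interval from 4 noodle-diet and 5 control rats. Each interval spans 0, the narrowest being that of Slc22a8 and the widest that of Slc13a4.

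Few probe sets of the relatives of these carriers were variable, as over the whole table, where 1223 of 31042 (3.94%) were. A compressed probe set says nothing of its transcript, so these counts do not show that the relatives were steady. Of 12 probe sets for 11 other SLC22 carriers 0 were variable, and of 8 for other sulfate and dicarboxylate carriers 0. Of 22 probe sets for other SLC6 carriers 1 was variable, that of the creatine carrier Slc6a8, from 8.95 to 9.24. Of 14 for carriers of brain endothelium 1 was variable, that of the monocarboxylate carrier Slc16a1, from 8.38 to 8.69. Of 23 probe sets for other organic anion and cation carriers of barriers 3 were variable. The efflux pump Abcg2 ran from 6.66 to 7.48 and Slco4a1, a carrier of thyroid hormone and other organic anions, from 6.38 to 6.97. Slco4a1 had the members' 5 rats on top, while Abcg2 had noodle rat 4 at 7.48 and control rat 2 at 6.75. The third, Slco1c1, a thyroid hormone carrier, ran the other way, with its lowest values, 8.57 and 8.69, in control rats 8 and 2. By limma 0 probe sets of these 5 lists passed, with medians of the diet difference between -7.5e-05 and 3.6e-05 beside -4.6e-06 over all probe sets.

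Markers of cell types that the dissection could hold were read beside the members. Of 43 probe sets for 27 meningeal and fibroblast genes 27 were variable, and their mean ran from 7.31 to 8.28 on the noodle diet and from 7.20 to 8.12 on the control diet. Noodle rat 1 (8.28) and control rat 8 (8.12) stood highest here too, and noodle rats 4 and 7 at 7.42 and 7.31 and control rats 11 and 14 at 7.27 and 7.20 were the lower 4. The variable probe set of Cdh1, an adhesion molecule of arachnoid barrier cells, measured 6.87, 5.78, 5.75 and 6.49 in noodle rats 1, 4, 7 and 13, against 6.48, 6.52, 6.47, 5.99 and 5.93 in control rats 2, 5, 8, 11 and 14. The proteoglycan gene Ogn, by its probe set of widest range, ran from 5.81 to 7.70 on the noodle diet and from 5.55 to 7.43 on the control diet. Of the 27 variable probe sets 19 had r above 0.9 with the mean profile of the members, against 129 of all 1223 variable ones (10.5%). Those 129 include the 8 variable member probe sets themselves. The meningeal list, like the members, was chosen with earlier results of these data known, so this contrast is a description and not a test. Not every meningeal marker followed. Aldh1a1 was higher in noodle rat 4 (8.38) than in noodle rat 1 (8.20), and Dcn was lower in control rat 2 (7.20) than in noodle rat 4 (7.46). Of the Cldn11 probe sets 1 had its lowest value in control rat 2 (7.15), but Cldn11 is on the oligodendrocyte list too and does not read meninges alone. The meningeal transcription factor genes Foxc1 and Zic1 were compressed. The lowest value of any probe set was 5.13, so the values do not tell whether a marker was detected. How far the amount of meninges in a sample set the members' values was not tested.

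Choroid plexus also makes several of these carriers, and the mean of the few variable probe sets on its list shared part of the members' order of rats. Of 21 probe sets for 13 choroid plexus genes 3 were variable, and their mean ran from 7.57 to 8.23 on the noodle diet and from 7.56 to 8.19 on the control diet. Among these 3 probe sets 1 had r below 0 with the mean profile of the members. Noodle rat 7 (7.57) and control rats 11 (7.56) and 14 (7.65), low for the members, had the lowest means. Noodle rat 4 (8.06) lay above control rat 5 (7.85), unlike in the members. Ttr, the thyroid hormone carrier secreted by choroid plexus, measured 7.67, 7.22, 5.68 and 7.19 in noodle rats 1, 4, 7 and 13, against 7.15, 6.48, 7.26, 5.82 and 6.07 in control rats 2, 5, 8, 11 and 14. Noodle rat 4, low for the 8 variable member probe sets, had the 3rd highest Ttr, and control rat 5, high for the members, lay below it. Enpp2, which encodes the secreted enzyme autotaxin, ran from 9.49 to 10.14. The choroid plexus genes Kl, Folr1, Kcnj13 and Otx2 were compressed.

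Other cell types followed in part. The class II invariant chain gene Cd74, the 1 variable probe set of 10 for border macrophages, ran from 7.40 to 8.34 on the noodle diet and from 7.04 to 8.69 on the control diet, with the same 5 rats on top. Of 23 probe sets for endothelium and pericytes 3 were variable, with means from 7.43 to 7.61 on the noodle diet and from 7.41 to 7.71 on the control diet. Among them Vtn ran from 7.04 to 7.60 and Tagln, of smooth muscle, from 6.89 to 7.42. Of 12 for ependymal cells and tanycytes 5 were variable, with means from 8.12 to 8.46 on the noodle diet and from 7.98 to 8.50 on the control diet. Vim, an intermediate filament gene that many non-neuronal cells express, ran from 9.36 to 10.40.

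Glial markers varied as well, with the astrocyte means of 6 variable probe sets (of 16) from 9.85 to 10.15 on the noodle diet and from 9.77 to 10.14 on the control diet. Among astrocyte genes Gfap ran from 10.45 to 11.35 and the wider probe set of the water channel gene Aqp4 from 8.62 to 9.27. For oligodendrocytes 13 of 13 were variable, with means from 10.01 to 10.28 on the noodle diet and from 9.90 to 10.47 on the control diet, and Mobp ran from 9.07 to 10.16 and Mog from 8.77 to 9.56. Control rat 2, high for the carriers, was the lowest rat for Mog.

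Peptide genes of hypothalamic neurons, which check the tissue label, were read in all rats. Pmch lay between 11.85 and 12.37, Avp between 10.49 and 11.84, Hcrt between 8.75 and 10.05 and Oxt between 8.66 and 10.52. Of the 18 probe sets of hypothalamic neuron markers 9 were variable, and their mean ran from 9.44 to 9.89 on the noodle diet and from 9.52 to 9.89 on the control diet. Noodle rat 1, highest for most carriers, was lowest for Avp and Oxt and had the lowest mean of the 9. Control rat 8, also high for the carriers, had the highest mean (9.892), and noodle rat 13 stood at 9.86. With the mean profile of the members 6 of the 9 had r below 0, and the median r was -0.33.

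To name the genes whose pattern was most like that of the members, each variable probe set was correlated over the 9 rats with the mean of the 7 members' scaled profiles. Over 9 rats that fall into sets of 5 and 4, such an r ranks genes and does little more. Of 1223 variable probe sets 129 (10.5%) had r above 0.9. The 12 genes of highest r outside the members were Fam180a (0.993), Crabp2 (0.989), Col1a2 (0.989), Serping1 (0.988), Tnnt2 (0.986), Aldh1a2 (0.985), Gjb2 (0.984), Fn1 (0.984), Ptgds (0.984), Slc16a12 (0.983), Bmp7 (0.983) and Rarres2 (0.982). Crabp2 binds retinoic acid and Aldh1a2 makes it, Col1a2 and Fn1 encode the matrix proteins collagen and fibronectin, Gjb2 is a gap junction gene, Serping1 an inhibitor of complement, Tnnt2 a troponin known from heart muscle, Bmp7 a secreted growth factor, Rarres2 the precursor of chemerin, and Ptgds the prostaglandin D synthase abundant in leptomeninges.

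In 12 of these 12 genes the same 5 rats were on top, which follows from choosing them by likeness to a profile with that step. Fam180a measured 7.82, 6.47, 6.38 and 7.18 in noodle rats 1, 4, 7 and 13, against 7.56, 7.35, 7.60, 6.35 and 6.43 in control rats 2, 5, 8, 11 and 14, and its gene is the neighbour of Slc13a4 on chromosome 4 in GRCr8. Ptgds had the widest range of the 12, from 10.37 to 12.66 on the noodle diet and from 10.22 to 12.76 on the control diet. Slc16a12, a carrier of the monocarboxylate family, had the smallest, from 6.32 to 6.66 on the noodle diet and from 6.32 to 6.67 on the control diet.

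The 4 genes most opposed to the members were Sncb (r of -0.904), Cygb (-0.895), Apeg3 (-0.887) and Got1 (-0.877). Sncb encodes the synaptic protein beta-synuclein, Cygb the heme protein cytoglobin and Got1 the cytosolic aspartate aminotransferase. They moved over narrower ranges, 0.29 log2 units for Sncb and 0.38 for Got1. Got1 measured 9.47, 9.80, 9.84 and 9.71 in noodle rats 1, 4, 7 and 13, against 9.58, 9.71, 9.68, 9.79 and 9.85 in control rats 2, 5, 8, 11 and 14. Noodle rat 1 was lowest, and noodle rat 13 stood close to control rat 5 in the middle.

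**Figure D4:**
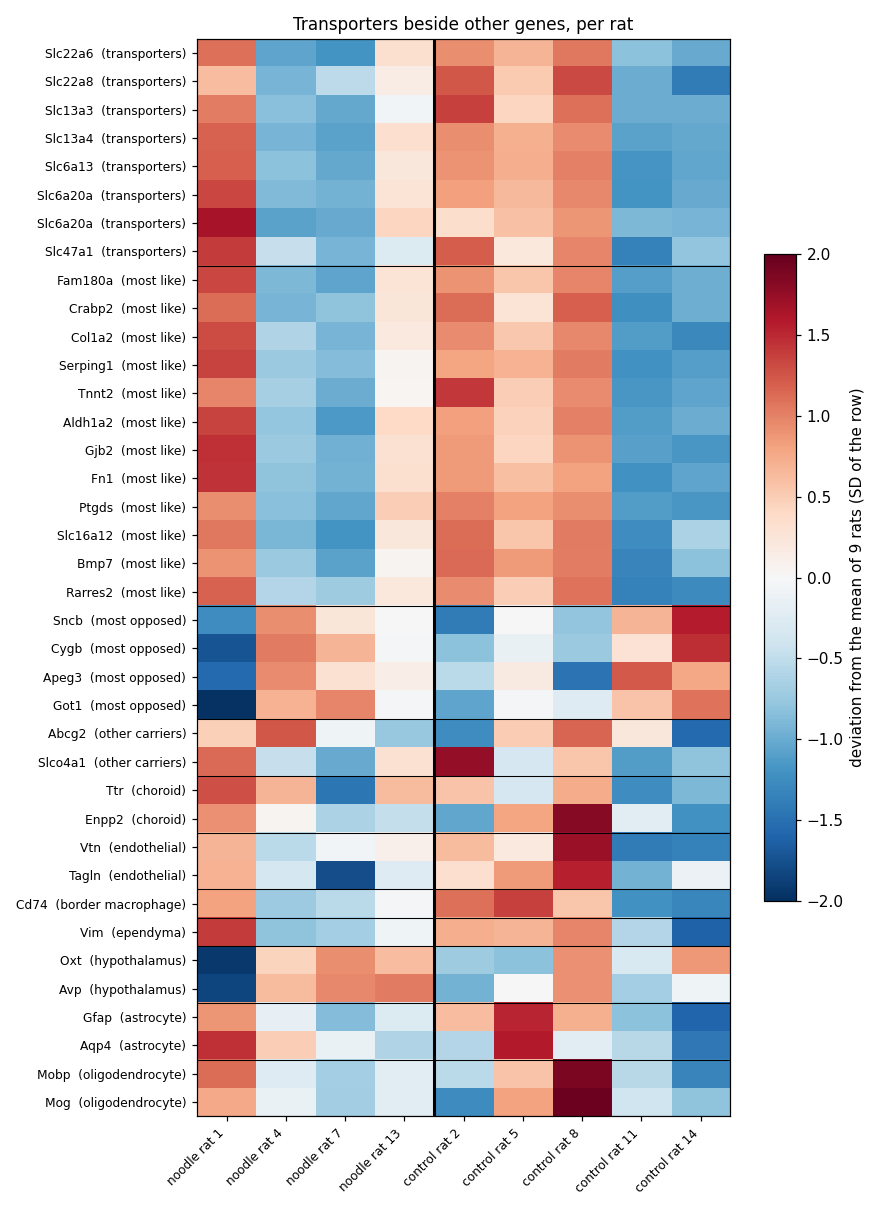
Deviation of each rat (columns, noodle diet left of control) from the mean of 9 rats in units of the row's SD, for the transporters, the 12 genes most like them, the 4 most opposed and markers of other carriers and cell types (rows). Transporters and like genes show noodle rats 1 and 13 and control rats 2, 5 and 8 above the other 4, apart from values near the mean in noodle rat 13. Abcg2, Avp and Mog order the rats otherwise, and Ttr does so in part.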

How the data were processed

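Per the labels' protocols, TRIzol-extracted RNA was column-cleaned and 100 ng went into biotin-labelled cRNA. The authors deposited 1 table of log2 values for 31099 probe sets, from 5.13 to 13.66 and taken as log2 from that range. The sources used here do not give its summarization or normalization. Array medians differ by under 0.01, so values were used as deposited, without 57 control probe sets. The files give no signal over background, and the number of arrays limits precision.

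The platform annotation gave 1 symbol to 20826 probe sets, several to 436 and none to 9780. All 7 member gene numbers were found in the rat gene table (GRCr8, for names and neighbours). Diets were compared with limma 3.58.1 in R 4.3.3 (lmFit, eBayes with intensity trend, 2-sided, Benjamini-Hochberg over 31042 probe sets, threshold 0.05). The fit was also run on simulated data with shifts far above the SD within a diet. That run says nothing of differences as small as those of the members. Alternatives were quantile normalization, a common median, no trend, array weights, a robust variance, a filter and a floor at the 20th percentile, averaged probe sets, variable probe sets alone (added after seeing the data) and leaving out rats. Named were the members, the 12 genes most like and the 4 most opposed, and up to 2 variable genes of widest range per list. Cdh1, Foxc1, Zic1, Aldh1a1, Dcn, Cldn11, Slco1c1, Hcrt, Pmch, Kl, Folr1, Kcnj13, Otx2 and Slc6a20b were added after their values were seen. The members and lists were chosen with earlier results of these data known. No protein sequence was used here.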

Additional observations from a re-analysis of the deposited data

Results flagged for a closer look

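Over the members and the 16 like or opposed genes, 50 groups of rats were searched for a rat standing apart within its diet, and 1 was found, fewer than the 2 or so that chance gives at about 1 in 20 groups. In the compressed Slc22a8 probe set noodle rat 7 stood at 6.22718, with the other noodle rats between 6.22749 and 6.22752, a distance that cannot be read as a fold change.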

How the results depend on the processing

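The count of 0 probe sets differing between diets held in 19 of 19 alternatives, including an adjusted p under 0.10 and the variable probe sets alone. The same 5 rats were on top in 8 of 8 variable member probe sets after quantile normalization, with a common array median and as deviations from the mean of each diet. The shift to a common median, under 0.01 in size, could not have changed that count. Leaving out rats cannot change the order of the others, so it bears nothing on that count. Without single rats the diet difference ran from -0.63 to 0.092 for Slc13a4, from -0.32 to 0.060 for Slc6a13, from -0.42 to 0.12 for Slc47a1, from -0.43 to 0.15 for the wider and from -0.20 to 0.13 for the other Slc6a20a probe set, and from -0.00016 to 2.0e-05 for the compressed Slc22a8 probe set. It stayed negative for Slc22a6 (-0.60 to -0.04), Slc13a3 (-0.43 to -0.06) and Slc22a8 (-0.15 to -0.0031). These turns follow from leaving out a high or a low rat, and under the other alternatives no difference turned. Spearman's correlation was run for the 12 like and 4 opposed genes and not between members. No paired analysis was run, because the labels do not say whether rats were paired or blocked across the diets.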

Other observations

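Some members have near relatives beside them on the chromosome, whose probe sets can be variable or compressed. In the assembly GRCr8 Slc6a20b is the neighbour of Slc6a20a, and its probe set, looked at after its values were seen, was compressed at 6.06 in all rats, while the Slc6a20a probe sets spanned 1.92 and 1.01 log2 units. The neighbours Slc22a6 and Slc22a8 ranged over 1.69 and 0.58 log2 units. A probe set of Slc22a8 can be variable or compressed within one gene, so a compressed neighbour says nothing of its transcript.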
